A study of Homo sapiens with 12 samples.

Results

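RNA from NCI-H1975 cells was read on 12 arrays, and the 7 arrays of cells that had received quinacrine were set against the 5 arrays of cells that had not. NCI-H1975 is a human lung adenocarcinoma line, and the labels give its EGFR as mutant (L858R/T790M), a change that all 12 arrays share. The 7 arrays with quinacrine came from cells in 3 µM quinacrine alone for 6, 12 and 24 h and from cells in 3 µM quinacrine plus 1 µM erlotinib, called the combination here, for 6, 12, 24 and 48 h. The 5 arrays without it came from cells in 1 µM erlotinib alone for 6, 12, 24 and 48 h and from untreated cells, for which the labels give no time. The series text also names 5 µM quinacrine, but no array label carries that dose. Each treatment and time had 1 array, so no condition was repeated, and the labels do not say whether separate dishes were used for separate arrays. A p-value below measures only the spread between these arrays, with different times and the presence of erlotinib counted as spread.

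The members described are the genes whose 2 groups of arrays did not overlap, that is, whose lowest array in one group lay above the highest array of the other. A gene was tested when its mean log2 expression level over the 12 arrays was at least 5, on the row of the highest mean where several rows carried one symbol, which left 5820 of 22395 named genes. Of these, 397 genes (6.82%) had groups that did not overlap, 136 of them higher with quinacrine (2.34%) and 261 lower (4.48%). The remaining 5423 tested genes had groups that overlapped. The distance between the nearest arrays of the 2 groups is called the gap. Of the 397 genes, 384 code for proteins, 8 give long noncoding RNAs, 3 are transcribed pseudogenes and 2 are annotated as small nuclear RNAs.

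Quinacrine is an acridine compound first used against malaria. It binds DNA, gathers in lysosomes, and is known to trap the histone chaperone FACT on chromatin, to lower NF-kappaB activity and to raise p53 activity in tumour cells. Erlotinib blocks the kinase of the EGF receptor, and the T790M change makes the receptor resistant to it. NF-kappaB is a family of transcription factors held in the cytoplasm by inhibitor proteins, and once freed it turns on chemokines, adhesion molecules and its own inhibitors.

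The promoters of 3 genes are printed because the genes, all without overlap and higher with quinacrine, belong to the NF-kappaB target list and hold a match to a kappaB motif. They run from 250 bases before to 50 bases after the start in RefSeq (GRCh38.p14), 5′ to 3′ on the gene's strand, with the match in capitals: ICAM1 at chr19:10270870-10271169 (plus strand), CXCL8 at chr4:73740319-73740618 (plus strand) and IRF1 at chr5:132490724-132491023 (minus strand).
ICAM1: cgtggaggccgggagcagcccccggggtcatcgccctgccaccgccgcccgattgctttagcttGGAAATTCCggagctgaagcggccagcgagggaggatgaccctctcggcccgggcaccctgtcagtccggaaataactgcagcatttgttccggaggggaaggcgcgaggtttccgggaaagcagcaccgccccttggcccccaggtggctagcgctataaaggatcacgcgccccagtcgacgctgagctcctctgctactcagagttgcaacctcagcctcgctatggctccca
CXCL8: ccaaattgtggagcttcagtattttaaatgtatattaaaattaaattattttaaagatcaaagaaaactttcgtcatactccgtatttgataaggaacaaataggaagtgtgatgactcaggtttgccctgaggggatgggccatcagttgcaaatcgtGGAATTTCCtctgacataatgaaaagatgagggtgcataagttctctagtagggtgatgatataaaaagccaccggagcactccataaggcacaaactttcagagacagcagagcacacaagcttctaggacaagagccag
IRF1: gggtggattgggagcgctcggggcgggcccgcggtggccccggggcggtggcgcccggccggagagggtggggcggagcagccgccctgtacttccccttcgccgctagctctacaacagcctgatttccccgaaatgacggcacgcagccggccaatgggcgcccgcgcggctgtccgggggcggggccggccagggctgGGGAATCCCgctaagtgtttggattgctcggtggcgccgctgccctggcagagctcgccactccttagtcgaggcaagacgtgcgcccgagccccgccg
The motifs searched on both strands were GGAANTTCC, GGGNNTTCC and GGGNNTCCC, and the same bases cannot match more than one of them. The matches begin 186 bases before the start in ICAM1 and 91 in CXCL8, both of the first motif, and 49 in IRF1, of the last. CCL2 and CXCL16, the list's other members without overlap, had no promoter sequence among those used and were not searched. GGAANTTCC was present in 3 of the 111 higher genes that had a promoter in the table (2.7%), in 2 of 211 lower genes (0.948%), in 51 of 4801 tested genes (1.06%) and in 264 of all 27305 promoters of this length (0.967%). Any of the 3 motifs was present in 20.7% of higher genes, 16.6% of lower genes, 16.5% of tested genes and 14% of all promoters. A match describes these letters and does not show a site in use.

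The differences of the 397 genes were mostly below 2-fold. The median difference, with minus without quinacrine, was 0.52 log2 among the 136 higher genes and -0.55 among the 261 lower genes, against -0.01 over all tested genes. A 2-fold difference or more was seen in 17 higher and 24 lower genes, and 1.5-fold or more in 54 and 110. The smallest were 0.16 and -0.16. Since the filter took in both groups, 19 higher genes passed it with a mean below 5 in the arrays without quinacrine and 22 lower genes with a mean below 5 in the arrays with it.

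**Figure D1:**
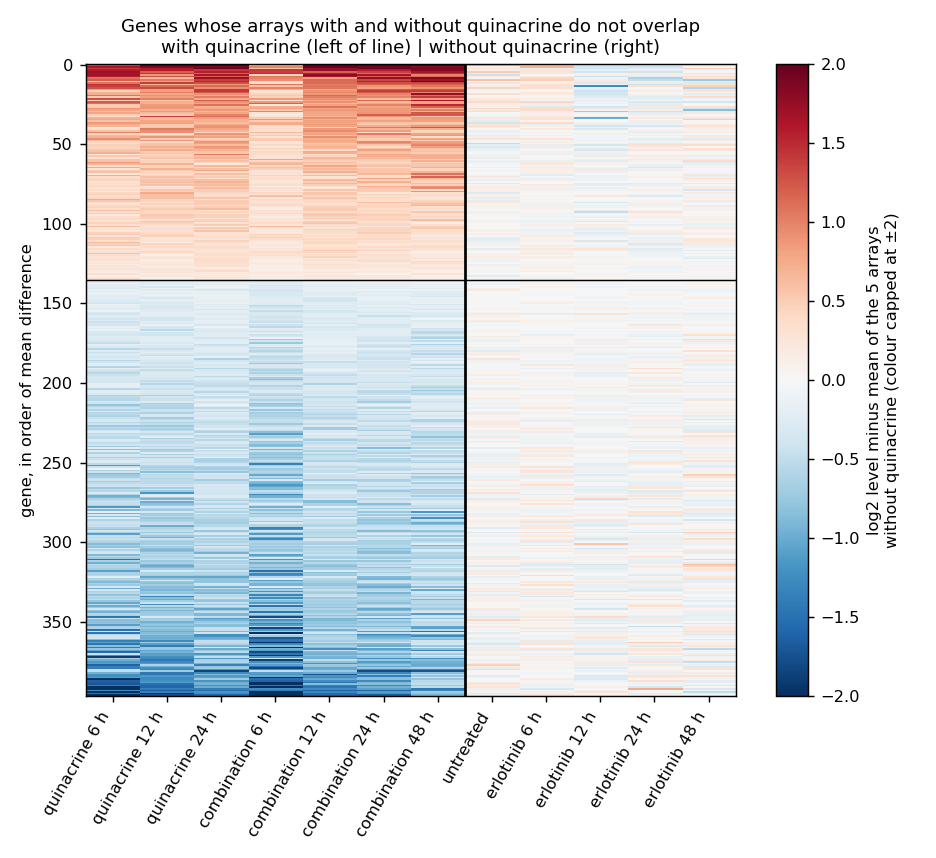
Log2 level of the 397 genes without overlap on each array, minus the gene's mean over the 5 arrays without quinacrine; rows are genes in order of mean difference, columns are arrays, and the colour scale stops at 2 log2 units either way. The 136 genes above the horizontal line are red on the 7 arrays with quinacrine and the 261 below it are blue, with the deepest blue on combination 6 h.

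In the limma fit across all 5820 genes, 687 genes (11.8%) passed an adjusted p of 0.05, of which 277 rose (4.76%) and 410 fell (7.04%). Of the 397 genes without overlap 375 passed and 22 did not, and 312 genes passed although their groups overlapped. Both measures use the same arrays, so neither supports the other. One array stood apart: the median of the tested genes on combination 6 h was 6.18, while the other 11 arrays lay between 6.385 and 6.56. Its median over tested genes was 0.22 log2 below that of the arrays without quinacrine, and its interquartile range over all rows was 2.04, against 2.26 to 2.88 on the others. Without combination 6 h the excess of lower genes was gone, with 286 higher and 282 lower genes without overlap and limma counts of 537 rises and 471 falls. Centring every array on its median gave 224 higher and 227 lower genes without overlap (438 rises and 454 falls in limma), and cyclic loess gave 213 and 275 (458 and 530). Of the 397 genes, 276 kept their separation after median centring (109 higher and 167 lower) and 322 after cyclic loess (116 and 206). Of the called genes named below, IFITM2 alone lost its call without combination 6 h (-0.32, adjusted p = 0.0531). The part of this array's level in the count of lower genes was otherwise not tested.

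**Figure D2:**
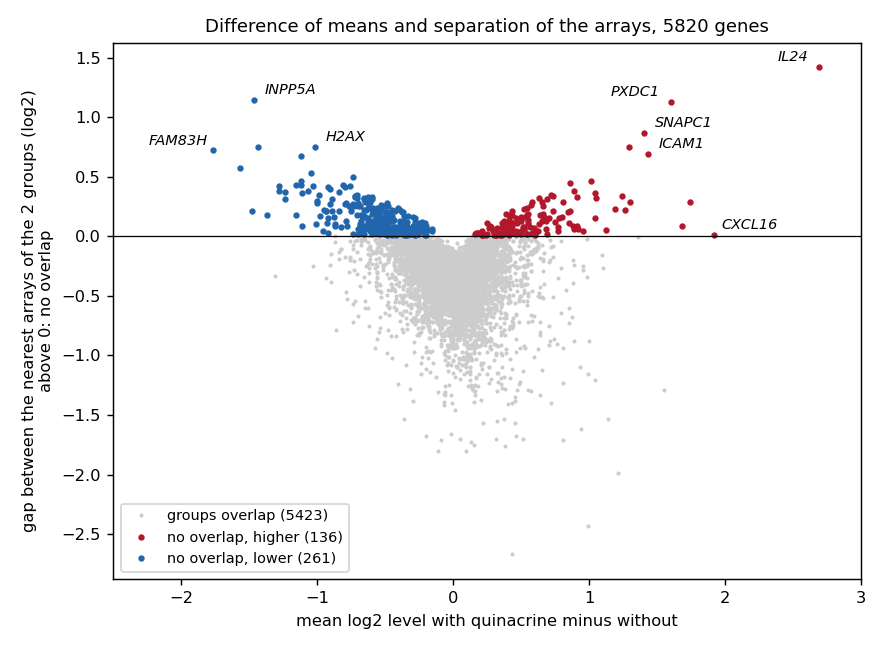
Each point is 1 of the 5820 tested genes, with its mean log2 difference (with minus without quinacrine) on the horizontal axis and the gap between the nearest arrays of the 2 groups on the vertical axis. Genes above 0 have no overlap: IL24 has the widest gap (1.42), INPP5A the widest among lower genes (1.14), and CXCL16 sits at 0.01 in spite of its difference of 1.92.

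IL24, on chromosome 1, had the largest difference of the 136 higher genes, followed by CXCL16, GALR2, CCL2, PXDC1 and ICAM1. It codes for a cytokine of the IL-10 family that can kill tumour cells. It read 6.66 log2 at its lowest (combination 6 h), 7.47 in the median and 7.69 at its highest with quinacrine, against 5.24 untreated and 5.19, 4.65, 3.75 and 4.7 with erlotinib at 6, 12, 24 and 48 h. Every array with quinacrine lay at least 1.42 above every array without. The means were 7.4 ± 0.36 with quinacrine (SD, n = 7) and 4.71 ± 0.6 without (n = 5), a 6.46-fold difference (log2 2.69, SE 0.24, limma adjusted p = 4.55e-05). With a mean below 5 without quinacrine, IL24 passed the filter only through the arrays with it, so these values are a description.

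Of 11 tested NF-kappaB target genes 7 rose and none fell, and the list's median difference was 0.55 (0.61 without combination 6 h). Over all tested genes 4.76% rose, 7.04% fell and the median was -0.01. Of the 7 genes CXCL8, CXCL16 and IRF1 had means below 5 without quinacrine and passed the filter only through the arrays with it, while 13 further members lay below the filter, so the count is a description and supports nothing. ICAM1, CCL2, CXCL8, CXCL16 and IRF1 had no overlap. ICAM1, the endothelial and epithelial ligand of leukocyte integrins, read 8.33, 8.51 and 8.82 (lowest, median and highest) with quinacrine, against 7.64 untreated and 7.41, 6.75, 6.74 and 7.12 with erlotinib at 6, 12, 24 and 48 h. It was 2.7-fold higher (log2 1.43, SE 0.16, adjusted p = 0.000238). CCL2, a chemokine that draws monocytes, read 8.04, 9.19 and 9.81 with quinacrine, against 7.72 untreated and 7.27, 7.05, 7.29 and 7.95 with erlotinib. Its lowest array with quinacrine, combination 6 h, was only 0.09 above erlotinib 48 h, while the mean difference was 1.68 (SE 0.26, adjusted p = 0.00209). CXCL8, the neutrophil chemokine IL-8, read 5.06, 5.49 and 6.24 with quinacrine, against 4.46 untreated and 4.84, 4.3, 3.77 and 4.65 with erlotinib. It was 2.4-fold higher (log2 1.26, SE 0.24, adjusted p = 0.00464).

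CXCL16, a membrane-bound chemokine, had the widest spread with quinacrine of these 5 genes (SD 0.76). It read 4.67, 6.26 and 6.82 with quinacrine, against 4.66 untreated and 3.66, 3.91, 4.21 and 4.04 with erlotinib. The combination 6 h and untreated arrays were thus 0.01 apart, with a mean difference of 1.92 (SE 0.32, adjusted p = 0.00292). IRF1, a transcription factor that NF-kappaB and interferon both induce, read 5.56, 5.65 and 6.22 with quinacrine, against 4.69 untreated and 4.95, 4.61, 4.73 and 5.1 with erlotinib, a difference of 1.01 (SE 0.14, adjusted p = 0.000739). The groups of IRF1 were 0.46 apart. BIRC2, an inhibitor of apoptosis (0.37), and PLAU, the urokinase protease (0.54), rose with overlapping groups; without erlotinib 24 h neither passed (adjusted p = 0.116 and 0.119).

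Among NF-kappaB subunits and feedback genes 3 of 11 rose, none fell, and the median was 0.26, where 4.76% of all tested genes rose. CYLD, a deubiquitinase that restrains the pathway, was the member without overlap and passed the filter only through the arrays with quinacrine. It read 6.03, 6.15 and 6.59 with quinacrine, against 5.1 untreated and 5.15, 4.53, 4.73 and 5.28 with erlotinib. It was 2.45-fold higher (log2 1.29, SE 0.14, adjusted p = 0.000219). TNFAIP3, a second ubiquitin-editing inhibitor, read 7.52, 7.79 and 8.7 with quinacrine, against 7.53 untreated and 7.41, 6.56, 5.53 and 5.76 with erlotinib. Its untreated array lay within the range of the arrays with quinacrine, and the difference of 1.36 (SE 0.34, adjusted p = 0.022) was 1.1 without erlotinib 24 h (adjusted p = 0.0574). The subunit genes NFKB1 (-0.01, adjusted p = 0.981) and RELA (-0.11, adjusted p = 0.512) did not pass, nor did NFKBIA, the classical inhibitor (0.41, adjusted p = 0.274), or NFKB2 (0.5, adjusted p = 0.0998). The sign of the NFKB1 difference turned under cyclic loess and median centring. TNIP1, a partner of TNFAIP3, rose by 0.37 and did not pass without erlotinib 12 h (adjusted p = 0.101).

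Antigen presentation genes gave 3 rises, no fall and a median of 0.28 among 10 tested. Of all tested genes 4.76% rose and 7.04% fell, with a median of -0.01. TAP1, the peptide transporter of the MHC class I pathway, read 6.16, 6.76 and 7.21 with quinacrine, against 5.93 untreated and 6.12, 5.97, 5.87 and 6.01 with erlotinib (difference 0.77, SE 0.17, adjusted p = 0.0101). HLA-E (0.52, adjusted p = 0.0243) and HLA-C (0.46, adjusted p = 0.0279), class I heavy chains, also had no overlap, with gaps of 0.08 and 0.04. Neither passed without erlotinib 6 h (adjusted p = 0.0676 for HLA-E and 0.0729 for HLA-C). HLA rows of the array share sequence with other HLA genes, and the array holds copies of this region under the same symbols.

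Interferon-response genes had the highest median difference of the lists with at least 5 tested members, 0.74, but none of the 15 tested members rose and none had groups without overlap. Over all tested genes 4.76% rose. The log2 level was also summed over the 26 list genes on the array, 11 of them below the filter. This sum ran from 111.4 to 164.6 over the arrays with quinacrine, against 115.7 to 132.4 over those without. The arrays with quinacrine thus held both the lowest and the highest sum. Without combination 6 h 2 members rose and the median was 0.91. IFIH1, a sensor of double-stranded RNA, read 3.89, 5.54 and 6.78 with quinacrine, against 4.06 untreated and 4.5, 4.36, 4.83 and 5.1 with erlotinib (1.04, SE 0.41, adjusted p = 0.118). Among other antiviral members OAS2 was 1.21 apart on average (SE 0.75, adjusted p = 0.319), while IFI6 had a difference of 0.85 (SE 0.39, adjusted p = 0.181). These averages pool unlike times. IFIH1 and OAS2 had means below 5 without quinacrine (4.57 and 4.8) and passed the filter only through the arrays with it. Their differences and the list's median are therefore a description. Combination minus erlotinib at 6, 12, 24 and 48 h was 0.01, 0.45, 3.06 and 2.58 for OAS2 and 0.4, 0.34, 1.38 and 1.77 for IFI6. Quinacrine minus erlotinib at 6, 12 and 24 h was -0.65, -0.03 and 3.43 for OAS2 and 0.17, 0.38 and 1.65 for IFI6. Their difference in slope with time did not pass in limma (adjusted p = 0.064 and 0.0785). IFITM2, a membrane protein that blocks viral entry, fell by 0.35 (adjusted p = 0.0484) and did not pass without erlotinib 24 h (adjusted p = 0.119).

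Other genes of the top 12 differed in their roles. SNAPC1, a subunit of a complex needed to transcribe small nuclear RNA genes, read 7.28, 7.61 and 7.79 with quinacrine, against 6.4 untreated and 6.41, 6.11, 6.02 and 5.87 with erlotinib. Its gap was 0.87 and its difference 1.4 (SE 0.12, adjusted p = 2.1e-05). PXDC1, a PX-domain gene on chromosome 6, was the tightest of the top 12: it read 6.4, 6.58 and 6.85 with quinacrine, against 5.13 untreated and 5.27, 4.82, 4.84 and 4.9 with erlotinib. The gap was 1.13, and the difference was 1.6 (SE 0.11, adjusted p = 2.16e-06). GALR2, a receptor for the neuropeptide galanin, read 5.72, 6.62 and 6.83 with quinacrine, against 4.86 untreated and 5.43, 4.4, 4.33 and 4.73 with erlotinib (1.74, SE 0.21, adjusted p = 0.000394). DLGAP1-AS2, a long noncoding RNA antisense to DLGAP1, differed by 1.3 (SE 0.23, adjusted p = 0.00335). F3, the tissue factor that starts blood clotting and a member of the YAP target and the complement and tissue factor lists, and CCN3, a secreted matricellular protein, differed by 1.24 (SE 0.22, adjusted p = 0.0034) and 1.19 (SE 0.27, adjusted p = 0.0133). PXDC1, GALR2, DLGAP1-AS2 and CCN3 had means below 5 without quinacrine and passed the filter only through the arrays with it. A further 4 genes were chosen after their values were seen, all without overlap. NOCT, a circadian phosphatase, differed by 1.04, BMP2, a growth factor of the TGF-beta superfamily, by 0.91, MICB, a ligand of the NK-cell receptor NKG2D, by 0.89, and KLF10, a TGF-beta-induced zinc finger factor, by 0.73 (adjusted p from 0.000669 to 0.00195).

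**Figure D3:**
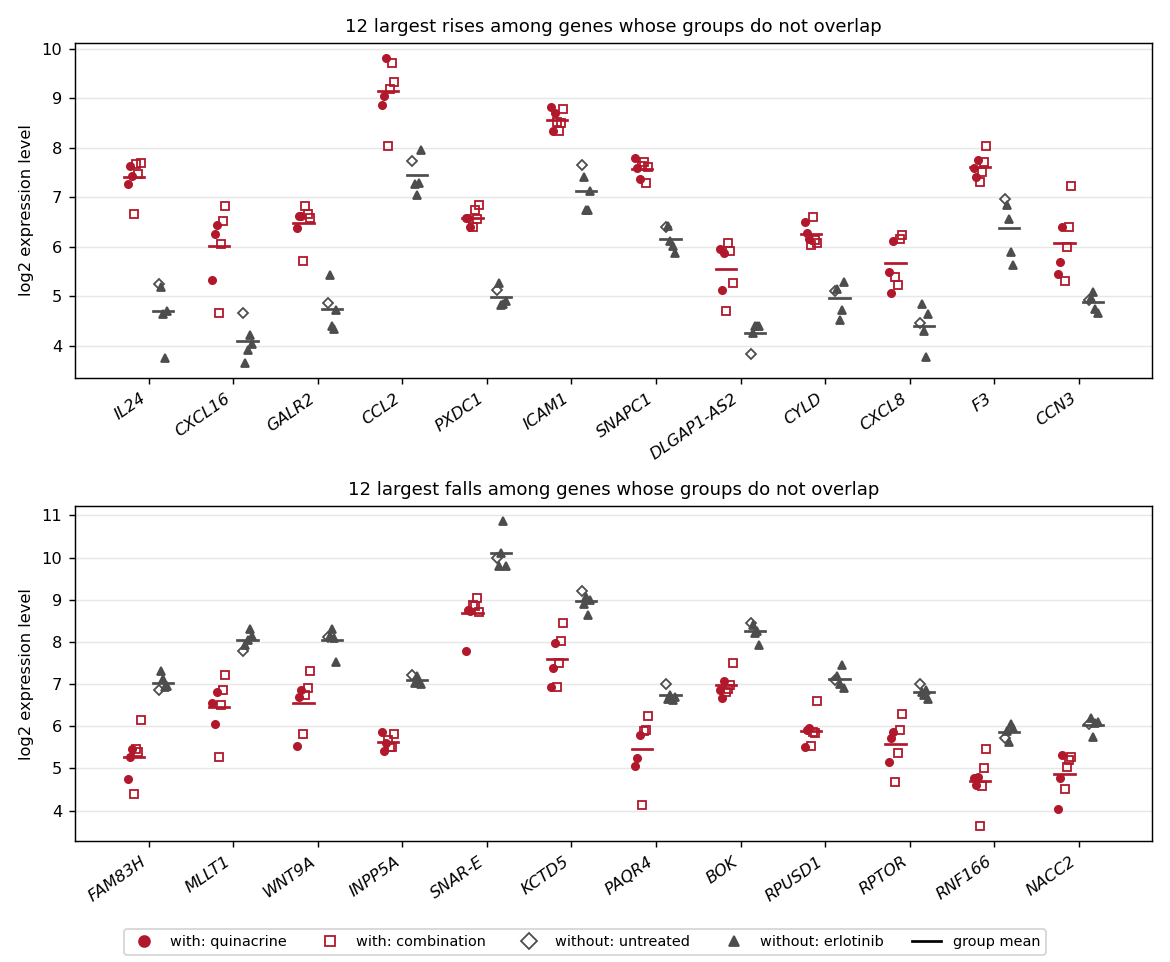
Log2 level on each array for the 12 largest rises (top) and the 12 largest falls (bottom) among the genes without overlap; red marks the 7 arrays with quinacrine, to the left, and grey the 5 without, with a bar at each group's mean. The red points of IL24 lie between 6.66 and 7.69, above all grey points (3.75 to 5.24), and those of INPP5A lie between 5.41 and 5.87, below all grey points (7.01 to 7.21).

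EGFR/ERK output genes, which that pathway induces, gave 3 rises and no fall among 13 tested, with a median of 0.15. Of all tested genes 4.76% rose and 7.04% fell, with a median of -0.01. EPHA2, an ephrin receptor, read 8.18, 8.28 and 8.51 with quinacrine, against 7.89 untreated and 7.79, 7.62, 7.53 and 7.47 with erlotinib. The untreated array was thus the highest of those without quinacrine, and the difference was 0.65 (SE 0.09, adjusted p = 0.000739). SPHK1, the kinase that makes sphingosine 1-phosphate, differed by 0.91 (SE 0.19, adjusted p = 0.00873) without overlap. EGR1, an immediate early transcription factor, rose by 0.65 (adjusted p = 0.0172) with overlapping groups. EGFR itself differed by -0.12 (adjusted p = 0.612), MYC by -0.13 (0.495 as adjusted p) and CCND1, cyclin D1, by 0.02 (0.959 as adjusted p). The CCND1 difference changed sign when only the 6, 12 and 24 h arrays were used.

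Among other lists, TXNIP, an inhibitor of thioredoxin and a FOXO target, was higher by 0.89 (SE 0.16, adjusted p = 0.00408), VIM, the mesenchymal filament vimentin, by 0.8 (SE 0.18, adjusted p = 0.0105), and CLDN7, an epithelial tight-junction claudin, by 0.38 (SE 0.08, adjusted p = 0.00719), each without overlap. ESRP2, an epithelial splicing factor, rose by 0.49 (adjusted p = 0.00775). None of 21 lysosome genes passed (median 0.13), where 11.8% of all tested genes passed in either direction and 4.76% rose. Of 10 autophagy genes RB1CC1 rose by 0.52 (adjusted p = 0.0396, and 0.097 without the untreated array). Of 10 p53 targets SAT1, a polyamine acetyltransferase, rose by 0.95 (adjusted p = 0.0203; 0.052 without erlotinib 12 h). CDKN1A, the p53-induced inhibitor p21, lay below the filter, at 3.77, 3.97 and 4.64 with quinacrine, against 4.26 untreated and 4.03, 3.95, 3.82 and 3.59 with erlotinib.

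The largest falls came from genes of varied roles. FAM83H, a scaffold for casein kinase 1 known for its part in enamel formation, read 4.39, 5.38 and 6.14 with quinacrine, against 6.86 untreated and 7.3, 7.12, 6.94 and 6.96 with erlotinib. It was 3.42-fold lower (log2 -1.77, SE 0.23, adjusted p = 0.000669), with a gap of 0.72. INPP5A, which removes the 5-phosphate from inositol phosphates, had the smallest spread of the top 12 (SD 0.17 with quinacrine): it read 5.41, 5.61 and 5.87 with quinacrine, against 7.21 untreated and 7.02, 7.18, 7.06 and 7.01 with erlotinib. Its difference was -1.47 (SE 0.09, adjusted p = 1.94e-06).

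WNT9A, a Wnt ligand, read 5.53, 6.75 and 7.31 with quinacrine, against 8.11 untreated and 8.14, 8.31, 8.09 and 7.52 with erlotinib (-1.48, SE 0.27, adjusted p = 0.00416). Its highest array with quinacrine, combination 48 h, was 0.21 below erlotinib 48 h. BOK, a pro-apoptotic member of the BCL2 family, read 6.68, 6.89 and 7.51 with quinacrine, against 8.44 untreated and 8.4, 8.22, 8.27 and 7.93 with erlotinib (-1.28, SE 0.13, adjusted p = 0.000165). RPTOR, the raptor subunit of the growth kinase complex mTORC1, read 4.68, 5.71 and 6.28 with quinacrine, against 6.99 untreated and 6.8, 6.75, 6.87 and 6.65 with erlotinib. That is a 2.37-fold difference (log2 -1.24, SE 0.22, adjusted p = 0.00343).

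The other genes of the top 12 were KCTD5, an adaptor of cullin 3 ligases (-1.37), PAQR4 (-1.28), the pseudouridine synthase gene RPUSD1 (-1.24), the ubiquitin ligase gene RNF166 (-1.16), the transcriptional repressor NACC2 (-1.16), MLLT1 and SNAR-E. SNAR-E, a small noncoding RNA, read 7.79, 8.75 and 9.04 with quinacrine, against 10.0 untreated and 9.79, 10.12, 10.86 and 9.8 with erlotinib (-1.44, SE 0.22, adjusted p = 0.00179). Its gene has near-identical copies that the probes cannot be assumed to separate, and SNAR-D, named for that reason after its value was seen, differed by -1.03. HSPA2, a heat shock protein of the HSP70 family, had one of the 5 widest gaps among lower genes (0.67, difference -1.12, SE 0.11, adjusted p = 6.93e-05). RNF166, NACC2 and SNAR-D had means below 5 with quinacrine and passed the filter only through the arrays without it.

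Among 15 tested transcription elongation factors 1 rose and 3 fell, where 4.76% of all tested genes rose and 7.04% fell. These small counts are a description. MLLT1, a subunit of the super elongation complex, read 5.27, 6.55 and 7.22 with quinacrine, against 7.79 untreated and 7.92, 8.04, 8.3 and 8.14 with erlotinib (-1.57, SE 0.26, adjusted p = 0.00275). ELL, an elongation factor of the same complex, read 5.77, 6.24 and 6.54 with quinacrine, against 5.31 untreated and 5.5, 3.91, 5.47 and 5.62 with erlotinib. Its difference of 1.04 (SE 0.25, adjusted p = 0.0174) includes the low erlotinib 12 h array. NELFB, a subunit of the pausing complex NELF, was lower by a tight margin (-0.37, SE 0.07, adjusted p = 0.00533), and PAF1, of the PAF complex, fell by 0.28 with overlap (adjusted p = 0.0418; 0.108 without erlotinib 6 h).

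Of 40 tested G1/S and DNA replication genes 7 fell and 1 rose, with a median of -0.09 (-0.08 without combination 6 h), where 7.04% of all tested genes fell and 4.76% rose. Of the 7 that fell, CCNE2 and POLE passed the filter only through the arrays without quinacrine. CHAF1A, the large subunit of the chromatin assembly factor CAF-1, read 4.52, 5.63 and 6.13 with quinacrine, against 6.3 untreated and 6.37, 6.4, 6.48 and 6.8 with erlotinib (-0.98, SE 0.22, adjusted p = 0.0115). CDT1, which loads the MCM helicase at origins, differed by -0.73 (SE 0.17, adjusted p = 0.0142), POLE, the catalytic subunit of DNA polymerase epsilon, by -0.56 (SE 0.13, adjusted p = 0.0157), and MCM4, a helicase subunit, by -0.29 (SE 0.07, adjusted p = 0.0143), all without overlap. CDC6, which works with CDT1 in loading the helicase, was the one that rose: it read 7.41, 7.6 and 7.76 with quinacrine, against 6.98 untreated and 7.22, 7.16, 7.18 and 7.3 with erlotinib (0.43, SE 0.09, adjusted p = 0.00668). CCNE2, cyclin E2 (-0.56), and CHAF1B, the second CAF-1 subunit (-0.5), fell with overlapping groups and did not pass without erlotinib 6 h and without the untreated array (adjusted p = 0.0791 and 0.0917). SKP2, a ubiquitin ligase subunit for p27, was named after its value was seen and differed by -0.76 without overlap (SE 0.1, adjusted p = 0.000669).

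Histone genes gave 3 falls and no rise among 10 tested, with a median of -0.23, where 7.04% of all tested genes fell. H2AX, the variant that is phosphorylated at DNA breaks, read 7.64, 7.86 and 7.9 with quinacrine, against 9.02 untreated and 8.73, 8.65, 8.91 and 8.77 with erlotinib. It was 2.03-fold lower (log2 -1.02, SE 0.08, adjusted p = 1.79e-05), and its 7 arrays with quinacrine spread by only 0.11 (SD). H1-4, a linker histone (-0.84, SE 0.17, adjusted p = 0.00612), H2AC21, a core histone H2A (-0.49, SE 0.08, adjusted p = 0.00252), and SLBP, the protein that binds the stem-loop of histone mRNA (-0.44, SE 0.09, adjusted p = 0.00856), also had no overlap. Histone genes of one type are similar in sequence, so their probes may not separate them.

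The FACT subunits did not pass the test. SSRP1 read 7.92, 8.04 and 8.27 with quinacrine, against 8.02 untreated and 8.34, 7.99, 8.33 and 8.21 with erlotinib (-0.12, SE 0.09, limma adjusted p = 0.402; exact two-sided permutation p = 0.162). SUPT16H differed by -0.08 (SE 0.07, limma adjusted p = 0.488; exact two-sided permutation p = 0.148), where 792 regroupings allow a smallest p of 0.00126. Of 35 G2/M and mitosis genes NUF2 and KIF23, both of spindle function, fell by 0.37 and 0.31, and 33 did not pass. Of all tested genes 7.04% fell. KIF23 did not pass without the untreated array (adjusted p = 0.0982), nor NUF2 without erlotinib 12 h (adjusted p = 0.0599). CDK1 differed by -0.09 (adjusted p = 0.567), and none of 10 cyclin D, CDK inhibitor and MYC genes passed, against 11.8% of all tested genes.

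The list of amino acid supply had the most falls: 8 of 20 amino acid and ATF4 response genes fell, where 7.04% of all tested genes fell, none rose, and the median was -0.26. After cyclic loess or median centring 2 of the 20 rose, with 9 and 8 falls. ATF4 is the transcription factor that cells use when amino acids run short. EPRS1, the glutamyl-prolyl-tRNA synthetase, read 7.65, 7.97 and 8.13 with quinacrine, against 8.49 untreated and 8.48, 8.56, 8.44 and 8.59 with erlotinib (-0.6, SE 0.1, adjusted p = 0.00244). AARS1, the alanyl-tRNA synthetase, differed by -0.45 (SE 0.1, adjusted p = 0.0118) without overlap. The serine synthesis genes PSAT1 (-0.46, adjusted p = 0.013) and PSPH (-0.42, adjusted p = 0.0156) and the leucine transporter gene SLC7A5 (-0.48, adjusted p = 0.0144) fell with overlapping groups. SLC7A11, the cystine transporter, read 5.28, 6.54 and 7.47 with quinacrine, against 7.77 untreated and 8.09, 7.66, 7.45 and 7.14 with erlotinib (-1.31, SE 0.39, adjusted p = 0.0436). Its 2 arrays of 6 h with quinacrine, at 7.47 and 7.35, lay among those without, and it did not pass without erlotinib 6 h (adjusted p = 0.106). SLC7A1, an arginine transporter (-0.4), and GARS1, the glycyl-tRNA synthetase (-0.32), did not pass without that array either (adjusted p = 0.0853 and 0.0767).

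Endoplasmic reticulum (ER) chaperones and other unfolded-protein genes gave 6 falls and no rise among 15 tested, with a median of -0.03, where 7.04% of all tested genes fell and the median was -0.01. HERPUD1, a membrane protein of ER-associated degradation, read 5.31, 5.78 and 6.01 with quinacrine, against 6.36 untreated and 6.47, 6.12, 6.08 and 6.37 with erlotinib (-0.59, SE 0.12, adjusted p = 0.00753). SEL1L, the partner of the degradation ligase HRD1 (-0.44, SE 0.09, adjusted p = 0.00808), and SDF2L1, a chaperone cofactor (-0.36, SE 0.08, adjusted p = 0.0151), also had no overlap. The chaperone BiP gene HSPA5 (-0.4), the transcription factor gene XBP1 (-0.34) and PDIA4 (-0.29), a disulfide isomerase, fell with overlap; without erlotinib 6 h HSPA5 and XBP1 (adjusted p = 0.05 and 0.0608), and without erlotinib 24 h PDIA4 (adjusted p = 0.0865), did not pass. Of 10 heat shock genes DNAJB1, an HSP40 cochaperone, was lower without overlap (-0.63, SE 0.11, adjusted p = 0.00384) and HSP90AA1 fell by 0.32 (adjusted p = 0.0183).

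**Figure D4:**
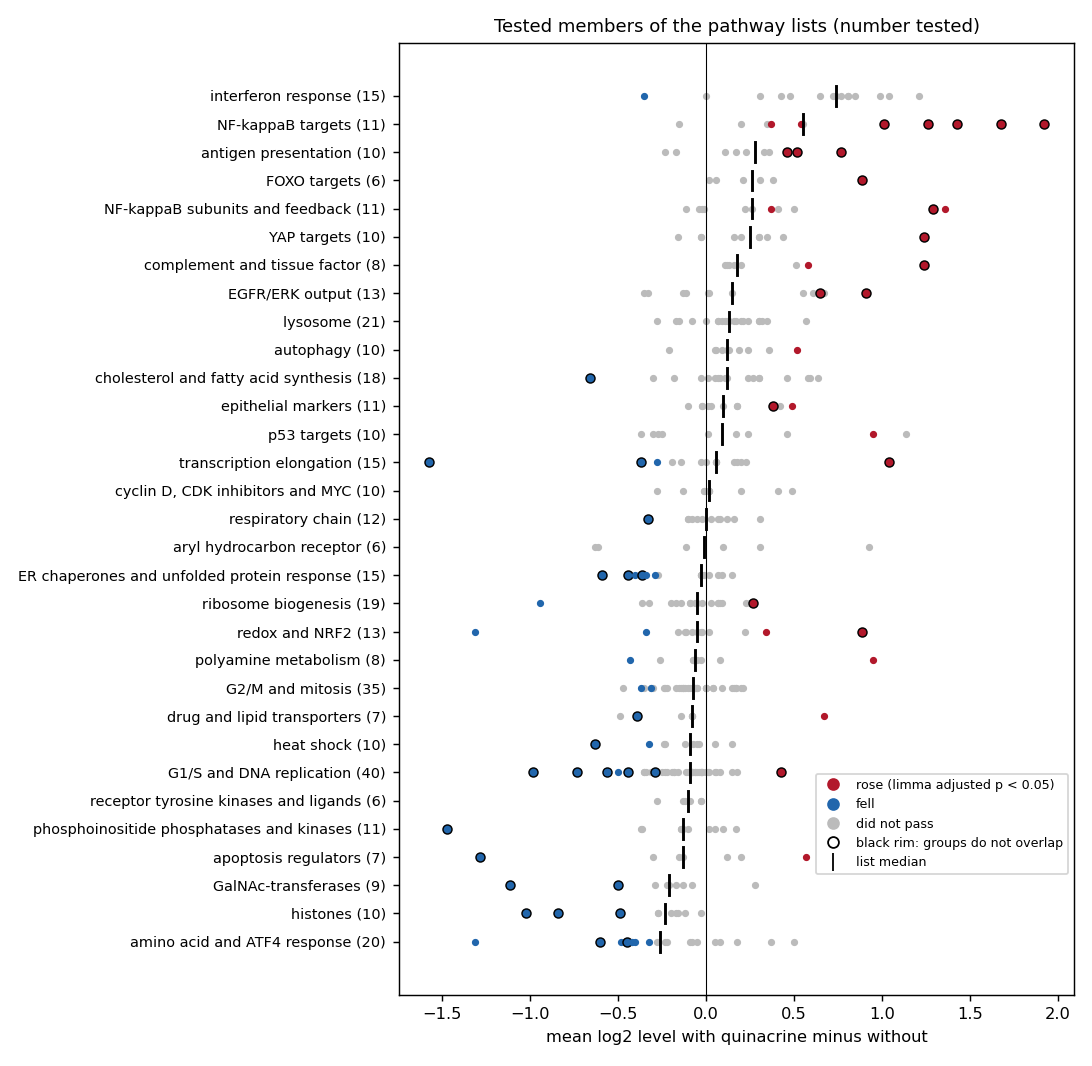
Mean log2 difference (with minus without quinacrine) of every tested member of the lists with at least 5 tested genes; red points rose and blue points fell at a limma adjusted p under 0.05, grey points did not pass, a black rim marks genes without overlap and a black bar the list's median. NF-kappaB targets reach 1.92, while the amino acid and ATF4 list has the lowest median, -0.26.

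Among lists of lipid, sugar-transfer, transporter, respiratory and ribosome genes 1 or 2 members passed in each, against 11.8% of all tested genes. FASN, fatty acid synthase, was the one of 18 cholesterol and fatty acid synthesis genes that passed; it read 8.24, 8.31 and 8.45 with quinacrine, against 9.06 untreated and 8.81, 8.76, 9.05 and 9.27 with erlotinib (-0.66, SE 0.09, adjusted p = 0.000739). GALNT11 (-1.11, SE 0.15, adjusted p = 0.000739) and GALNT10 (-0.5, SE 0.1, adjusted p = 0.00509), which start O-linked glycans, were the 2 of 9 GalNAc-transferases that fell, GALNT11 having passed the filter only through the arrays without quinacrine. ABCC1, a drug and glutathione-conjugate exporter, was lower (-0.39, SE 0.08, adjusted p = 0.00959), and its relative ABCC3 rose by 0.67 with overlap (adjusted p = 0.0333; 0.0867 without erlotinib 24 h). UQCRC2, a core subunit of respiratory complex III, was lower by 0.33 (SE 0.06, adjusted p = 0.00561) and alone of 12 respiratory chain genes to pass. Of 19 ribosome biogenesis genes 1 rose and 1 fell, with a median of -0.05, where 4.76% of all tested genes rose and 7.04% fell. BOP1, a factor for the large ribosomal subunit, fell by 0.94 with overlapping groups (SE 0.24, adjusted p = 0.0233; 0.057 without erlotinib 6 h), and UTP4, a factor for the small subunit, was higher by 0.27 without overlap (adjusted p = 0.0369; 0.0723 without erlotinib 24 h). EDF1, a ribosome-associated coactivator named after its value was seen, read 7.71, 8.8 and 9.05 with quinacrine, against 9.56 untreated and 9.53, 9.41, 9.68 and 9.53 with erlotinib, and its lowest values were those of the 24 and 48 h arrays (-1.11, SE 0.25, adjusted p = 0.0135).

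Position on the chromosome, which the rule did not use and which was looked at after the values were seen, differed between lower and higher genes. Tested genes were put in order along each chromosome by their RefSeq starts and divided into 10 parts of equal size. Of the 261 lower genes 109 (41.8%) lay in the first or last part, against 25 of 136 higher genes (18.4%) and 1157 of 5794 tested genes that could be placed (20%). The last part alone held 69 of the lower genes (26.4%), against 9.8% of the tested genes. The share was 41.8% without combination 6 h, 40.5% after median centring and 38.2% after cyclic loess. The median promoter GC was 69.0% in the first part and 70.0% in the last, against 64.0% to 66.0% in those between, so the shares were also taken on either side of the median promoter GC of 65.7%. Of the lower genes with a GC-rich promoter 51.9% lay in the first or last part, against 25.7% of such tested genes, and with a GC-poor promoter 27.6%, against 14.3%.

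The position was also described array by array over all tested genes, the lower genes included. The median of the genes in the first and last parts minus that of the rest, each gene taken relative to its mean without quinacrine, was -0.056, -0.06 and -0.068 on quinacrine 6, 12 and 24 h and -0.066, -0.056, -0.064 and -0.048 on combination 6, 12, 24 and 48 h. It was 0.014 on the untreated array and 0.006, -0.004, 0.01 and -0.012 with erlotinib at 6, 12, 24 and 48 h. Taking each gene relative to its mean without quinacrine holds the values of those 5 arrays near 0, and the values are those the rule used, so this is no separate support. The combination 6 h array did not stand apart from the others with quinacrine in this measure. The shift is small beside the changes of single genes, and neighbouring genes are not independent. Chromosome 16 held 38 of the 261 lower genes (14.6%), against 5.98% of the tested genes. Its first 50 tested genes in order, POLR3K to THOC6, held 17 of them, TSC2, MLST8, RPUSD1, KCTD5 and PAQR4 among them, and its last 48, ADAT1 to DRC4, held 7, with CDT1 and RNF166.

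**Figure D5:**
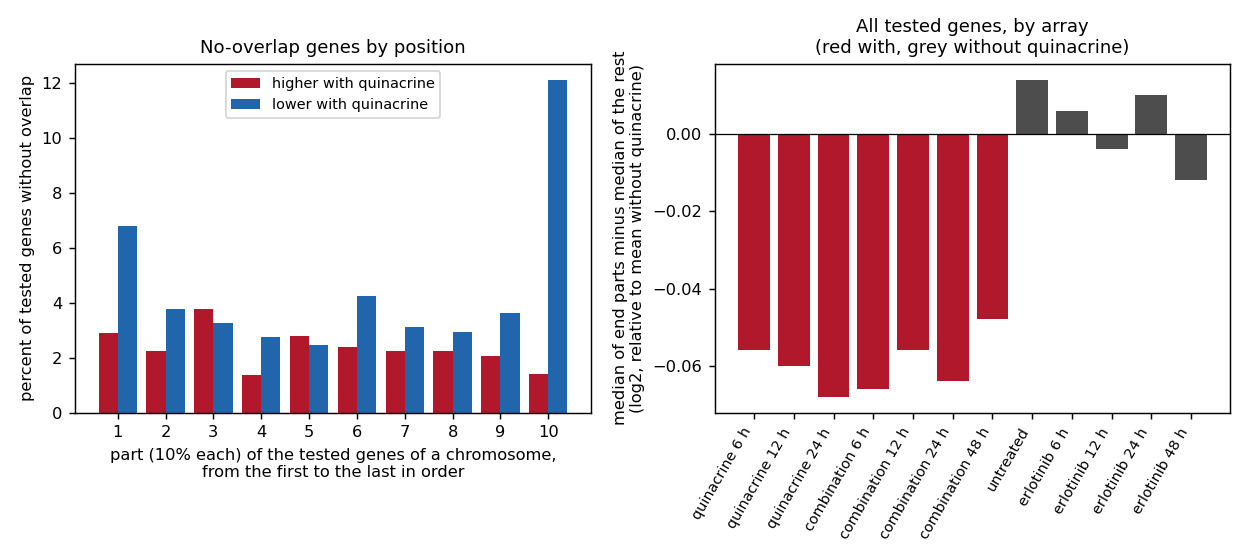
Left, the percentage of tested genes without overlap in each of 10 parts of the gene order of a chromosome, red for genes higher and blue for genes lower with quinacrine; right, the median log2 level of genes in the first and last parts minus that of the other genes on each array, relative to the mean without quinacrine. Lower genes make up 6.79% of the first part and 12.1% of the last, and 2.45% to 4.26% of those between, and the 7 red bars (-0.048 to -0.068) all lie below the 5 grey bars (-0.012 to 0.014).

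In length and promoter content the 2 sets differed in other ways, given as descriptions. Median promoter GC was 63.7% for higher genes, 69.0% for lower genes and 65.7% for all tested genes with a promoter in the table. The median gene spanned 21.9 kb among higher genes, 26.5 kb among lower genes and 30.6 kb among all tested genes.

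The array of the group with quinacrine that lay nearest to the other group differed between members. For 67 of the 136 higher genes combination 6 h was the array nearest to those without quinacrine, and for 73 of the 261 lower genes it was combination 48 h. On the other side erlotinib 12 h was nearest for 78 lower genes, and erlotinib 6 h and 48 h were nearest for 41 and 38 higher genes. The difference between groups in slope per doubling of time, over the 11 treated arrays, passed in 3 of 5820 genes (0.0515%), and 927 genes had an unadjusted p below 0.05. CCN3 had a slope 0.71 higher with quinacrine than without (SE 0.09, adjusted p = 0.0192), F3 0.62 (SE 0.08, adjusted p = 0.0213) and CCN1, a matricellular YAP target, 0.53 (SE 0.07, adjusted p = 0.0192). For CCN3 the combination minus erlotinib was 0.34, 0.91, 1.65 and 2.56 at 6, 12, 24 and 48 h, and for F3 it was 0.45, 0.96, 1.82 and 2.41. CCN1 read 8.62, 8.78 and 8.95 with quinacrine, against 9.11 untreated and 9.04, 8.42, 7.85 and 7.28 with erlotinib, so its 7 arrays with quinacrine held level while the erlotinib arrays went down with time. No gene passed this test without quinacrine 24 h, combination 24 h or erlotinib 6 h, and 22 passed after median centring.

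Whether erlotinib on top of quinacrine changed the members was asked within the 7 arrays. No gene passed in the combination minus quinacrine comparison (0.0% of 5820; smallest limma adjusted p = 0.965), 119 genes had an unadjusted p below 0.05, and a fit with array weights called 247. Among the members 1 of 136 higher and 2 of 261 lower genes had an unadjusted limma p below 0.05, against 119 of 5820 tested genes. The rule took genes whose 7 arrays with quinacrine all lay on one side of the others. That favours a small spread within the 7, so the low count among members is no separate support. The median half-width of the 95% interval of this difference was 0.27 log2 for the members, so smaller differences could not be told from the spread. ICAM1 differed by -0.11, PXDC1 by 0.09 and H2AX by 0.04 between combination and quinacrine alone.

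At the limit of the rule, the genes just inside with a difference of at least 0.5 were CXCL16, BBS7, a ciliary trafficking gene (gap 0.01, difference 0.6), and TCIRG1, a proton pump subunit (gap 0.02, difference -0.7). TCIRG1 passed the filter only through the arrays without quinacrine. Just outside, with a gap of 0.0, were PMAIP1, the pro-apoptotic NOXA (difference 0.57), ZNF611 (0.57) and TTYH3, a chloride channel gene (-0.87). Of 53 further rows that carried the symbol of a member, 37 had a mean of at least 5, 36 of these differed in the same direction as the row used and 25 had no overlap.

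The arrays carried the epithelial markers of the line. NKX2-1, the lung lineage factor, averaged 6.08 with quinacrine and 6.18 without, EPCAM 8.53 and 8.55, and CDH1 10.38 and 10.2, while the surfactant genes SFTPB, SFTPA1 and SFTPC had means below 2. No marker of T cells, endothelium, fibroblasts or erythroid cells passed the filter. Of the B-cell markers CD79A passed it: it read 6.79, 7.12 and 7.41 with quinacrine, against 7.6 untreated and 7.3, 7.47, 8.13 and 9.03 with erlotinib at 6, 12, 24 and 48 h (-0.74, SE 0.25, adjusted p = 0.0661), while MS4A1 averaged 1.18. The sum of these 2 markers was 8.0 to 8.6 with quinacrine and 8.4 to 10.0 without, and their part in the results was not tested. The summed level of the 4 T-cell markers was 5.3 to 6.9 with quinacrine and 5.0 to 5.6 without, and that of the 5 macrophage markers was 18.5 to 19.4 with quinacrine and 18.1 to 19.2 without. Of these macrophage markers 2 passed the filter, CD68 and CSF1R, with a median difference of 0.0. CD68, a lysosomal protein that many cell types make, fell by 0.4 (limma adjusted p = 0.0279, and 0.0746 without erlotinib 24 h). CSF1R did not pass the test, and CD14, CD163 and AIF1 were below 2. In RNA from a whole culture fewer cells of one kind and less RNA per cell cannot be told apart.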

How the data were processed

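RNA from NCI-H1975 cells was labelled and hybridised to 12 Affymetrix Human Gene 2.1 ST arrays. Per the labels and the submitters' processing notes, the authors ran RMA in Affymetrix Expression Console 1.30 (background correction, quantile normalization across arrays), and the deposited values are log2 expression levels, annotated by them with hg19 files. They were used as deposited, with all 12 columns matched to samples by label. Of 53617 rows 23871 had 1 gene symbol, 1842 several and 27904 none in the platform annotation used here; Entrez IDs of 22569 rows matched RefSeq and updated 90 symbols. Genes with a mean log2 level of at least 5 were kept.

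Groups came from the labels. Differences were fitted with limma 3.58.1 (lmFit and eBayes, R 4.3.3, 10 residual degrees of freedom), with Benjamini-Hochberg adjustment over 5820 genes at 0.05, two-sided. Slopes used log2 of hours on the 11 treated arrays, and combination minus quinacrine used 7 arrays with log2 hours as a covariate. For FACT, an exact permutation test over the 12 arrays was added. The fit was tested on simulated arrays. Alternatives covered the filter, rows, scaling, covariates, array weights, prior and each array left out. The number of arrays, which carry no read depth, limits the precision.

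The members, the 34 pathway lists and the 7 marker lists were chosen with earlier results of these data known. Genes were named by rule: among genes without overlap the 12 largest and 12 lowest differences, the 5 widest gaps each way and every list member, the 2 members with the smallest p of lists with none, 10 genes always, 3 genes on each side of the limit, and genes called for slope. Other named genes were chosen after their values were seen, among them the list members with overlapping groups. Of the genes the rule names for lists with none, some are given only as counts.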

Additional observations from a re-analysis of the deposited data

Results flagged for a closer look

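The difference in slope per doubling of time passed the limma test of the difference itself for CCN3 (0.71), F3 (0.62) and CCN1 (0.53), with minus without quinacrine.

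Among the 134 genes named, 17 of 268 gene and group pairs (6.34%) had an array far from the others of its group, and chance gives about 1 in 20. Of the arrays with quinacrine, combination 6 h was low for IL24 (6.66; next 7.26), GALR2 (5.72; next 6.38) and BCL9 (3.43; next 5.17), and combination 48 h was high for RPUSD1 (6.59; next 5.95), SPHK1 (7.38; next 6.61) and CDKN1A (4.64; next 4.08). On quinacrine 6 h SNAR-E was low (7.79; next 8.7) and GALNT11 high (5.23; next 4.7). Of the arrays without quinacrine, erlotinib 48 h was low for WNT9A (7.52), VIM (4.53) and DUS1L (8.23) and high for GALNT10 (7.08). Erlotinib 12 h was low for ELL (3.91) and NELFB (8.38), erlotinib 24 h was low for CCNE2 (4.82), and the untreated array was low for DLGAP1-AS2 (3.84) and MYD88 (5.33). The part of the lower level of combination 6 h in its 3 values was not tested.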

How the results depend on the processing

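The limma count of 687 genes was between 463 and 1008 when single arrays were left out, the highest without combination 6 h. It was 353 with the 6, 12 and 24 h arrays alone, 1508 with array weights and 7 in a test against a 1.5-fold change. The count of genes without overlap, 397, was 422 to 568 without single arrays, 631 with no filter on 22395 genes, 942 over all 53617 rows, and 840 with the 6, 12 and 24 h arrays alone. It was 699 without combination 6 h and erlotinib 12 h together, chosen after seeing the data. Fewer arrays overlap less often, so the counts with arrays left out rise by construction. The counts with no filter and over all rows used all 12 arrays but more genes or rows. The 3 time-slope calls became 0 with no filter, over all rows and with array weights. They became 30 with the filter on the arrays without quinacrine, 38 with cyclic loess, 22 with median centring, 60 with a trended prior, 36 without combination 6 h and erlotinib 12 h, and 0 to 21 without single arrays. The combination minus quinacrine count of 0 was 247 with array weights, was 0 under the other alternatives run, and was 0 without any single array. The causes of these shifts were otherwise not tested.

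The NFKB1 difference of -0.01 was 0.01 with cyclic loess, array weights or the 6, 12 and 24 h arrays, 0.02 with median centring, 0.04 with the 11 treated arrays, 0.03 with time as a factor and 0.06 without combination 6 h and erlotinib 12 h, and it ran from -0.13 to 0.08 without single arrays. The CCND1 difference of 0.02 was -0.01 with the 6, 12 and 24 h arrays and ran from -0.11 to 0.11 without single arrays. Neither passed in any of these. Over 133 named and tested genes and their alternatives, 2901 of 3447 values kept direction and side of the threshold, 509 lost the call, 19 gained one and 18 changed sign, all of NFKB1 or CCND1. Of 116 called genes, 85 kept the call without each single array; the other 31 lost it without 1 to 10 different single arrays, PLAU and SLC7A11 without 10, RB1CC1, TNIP1 and UTP4 without 9. Over the 34 lists, cyclic loess and median centring kept the sign of the median except for aryl hydrocarbon receptor genes (-0.01, against 0.02 after median centring). The labels give no replicate numbers but match arrays by time, and with time as a factor on the 11 treated arrays 533 genes passed, 230 higher and 303 lower. With erlotinib as a covariate on all 12 arrays 568 genes passed, 226 higher and 342 lower. In that fit 13 of the 133 named and tested genes lost the call, SLC7A11, PLAU, BIRC2 and TNIP1 among them, and 1 gained one.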

Other observations

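Genes of growth and cytokine signalling were picked out after their values were seen, so their counts support nothing. Besides RPTOR, the mTORC1 subunit gene MLST8 was lower with quinacrine (6.41 ± 0.28 with and 7.19 ± 0.13 without; SD, n = 7 and 5; log2 -0.79, limma adjusted p = 0.00263), as were its negative regulators TSC2 (-0.66, adjusted p = 0.00295) and NPRL3 (-0.71, adjusted p = 0.00261), all without overlap. RICTOR, the defining subunit of mTORC2, was higher by 0.35 (adjusted p = 0.032; 0.0841 without the untreated array). MLST8, TSC2 and NPRL3 lie among the first 50 tested genes of chromosome 16. Of signal carriers for cytokines and innate sensors, the interferon gamma receptor chain IFNGR2 was higher by 0.86 (adjusted p = 0.000568), the receptor gene IL27RA by 0.77 (adjusted p = 0.0034), the adaptor MYD88 by 0.55 (adjusted p = 0.00326), the kinase gene IRAK2 by 0.46 (adjusted p = 0.0293; 0.0677 without erlotinib 24 h) and STAT3 by 0.37 (adjusted p = 0.0119). Wnt pathway members without overlap were lower, with LRP5 and LRP6, the coreceptors, at -0.66 and -0.54 (adjusted p = 0.00808 and 0.00561), and BCL9, a beta-catenin cofactor, at -0.92, which did not pass in limma (adjusted p = 0.112).

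XPOT, PUSL1, DUS1L, IMPACT and RXRA were also picked out after their values were seen, on no fixed list, and support nothing about a group. XPOT, the tRNA exporter, averaged 6.95 ± 0.33 with quinacrine and 7.94 ± 0.08 without (-1.0, adjusted p = 0.00106). The modifying enzymes PUSL1 (-0.94, adjusted p = 0.00144) and DUS1L (-0.88, adjusted p = 0.00261) and IMPACT, a regulator of the amino acid sensor GCN2 (-1.0, adjusted p = 0.00691), had no overlap. RXRA, a nuclear receptor that pairs with many others, was lower by 1.12 (adjusted p = 0.000244). PUSL1, IMPACT and RXRA had means below 5 with quinacrine and passed the filter only through the arrays without it. CYP1B1, an aryl hydrocarbon receptor target, averaged 6.32 ± 0.39 with quinacrine and 6.95 ± 0.34 without (-0.63, adjusted p = 0.0532). The 7 arrays were not alike: it read 6.21, 5.9 and 5.76 with quinacrine alone and 6.68, 6.62, 6.77 and 6.31 with the combination. Without quinacrine it read 6.62 untreated and 7.37, 6.85, 7.26 and 6.66 with erlotinib. Combination minus quinacrine was 0.7 (SE 0.12, limma unadjusted p = 0.00054, adjusted p = 0.965).

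Of 2500 rows with a mean of at least 5 and no single gene name, 114 (4.56%) had groups that did not overlap, 50 higher and 64 lower. Of 16575 named genes below the filter, 1.41% had no overlap, 96 higher and 138 lower.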
